A study of Euphorbia esula with 15 samples.

Results

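This is an account of how the transcriptome of growing leafy spurge crown buds, 72 h after the shoot was cut off, differed from that of buds in their early response, 6 h after the cut. Leafy spurge (Euphorbia esula) is a perennial weed that regrows from underground adventitious buds on its crown and roots. All plants were of the cultivar 1984-ND001, propagated as 1 clone, and stood at 27 C and a 16 h photoperiod in a growth chamber without glyphosate. The 6 h group (4 libraries) and the 72 h group (4 libraries) come from plants whose aerial stems were excised at soil level 6 h and 72 h before the buds were frozen, and 3 libraries of buds from intact plants (0 h) serve below as a point of reference. Each library pools the crown buds of many plants, so replicates are pools and not single plants, and with a single clone the spread between them holds no genetic variation. The study's methods place every harvest around noon, although a label writes the hour in another way. Plants of the 6 h group were therefore cut in the morning, a difference in the hour of the cut that cannot be told apart from the time since the cut.

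The unit is the component, the assembler's closest equivalent of a gene, as no leafy spurge genome was used. Components were taken when their normalized counts (expected counts divided by a size factor for each library) exceeded 10 in every library of 6 h or in every library of 72 h. That left 17390 of 223732 components, which carried 98.46% of all expected counts. The lowest deciding value among components kept was 10.07 and the highest among those left out 9.95, with 144 components between 10 and 11 and 519 between 9 and 10. Of the 17390, 16032 passed in both groups, 792 through 6 h alone and 566 through 72 h alone. A component that passed through 1 group alone was taken for its level there, so its direction is largely set by the filter: of the 792, 126 were called lower and 1 higher, and of the 566, 176 were called higher and none lower. Such components are marked where they are named, and their differences are descriptions. The components were described by the Arabidopsis gene identifier (AGI) and the best protein hit that the study assigned to their contigs: 15459 had an AGI, from 11744 different AGIs, and 1061 had no hit at all. Names below are thus those of the closest known protein, and a role is the one known for the Arabidopsis counterpart. Contigs joined in 1 component can differ in their hits: the AGI given held 51.5% of the counts of comp120995_c1, 58.5% of comp113989_c0, 60.9% of comp95419_c0 and 61.6% of comp111736_c0, the lowest shares among the components named. Counts are not set per length, so an order of components by count is no order of expression.

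Crown buds are held in paradormancy, a growth arrest imposed on a bud by other parts of the same plant, in large part by auxin moving down from the shoot tip and by sugars and other signals from the leaves. Removing the shoot lifts this arrest. In plants generally, an excised or wounded shoot sets off a rapid jasmonate and ethylene response, whereas outgrowth requires cells to re-enter the cell cycle, build ribosomes, loosen and extend their walls, and respond to cytokinin made or delivered locally.

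Library totals were 2589107 to 7981890 expected counts at 6 h and 1847115 to 7253556 at 72 h, with no difference found (exact permutation test, two-sided, p = 0.486, n = 4 and 4). The share of counts on components whose best hit has a named group of organisms other than plants was 0.121 to 0.137% at 6 h and 0.156 to 0.181% at 72 h. The 2 ranges did not overlap (exact permutation p = 0.0286, the smallest that 4 against 4 allows, 0.114 after adjustment over 4 library measures). Components with a hit but no group of organisms given were left out of this share. Spearman correlations of the libraries were 0.979 to 0.987 within 6 h, 0.972 to 0.984 within 72 h and 0.945 to 0.965 between them. Markers of the shoot apex and young leaf, which check the label, were present: 14 components for 8 of 12 marker genes were tested, with a summed level of 3766 to 4153 normalized counts at 6 h and 4167 to 4594 at 72 h. Calls in this and the other marker lists (adjusted p under 0.05, by the edgeR test described below) are to be read against the 13.8% of all components that were higher and the 11.8% that were lower. Among the markers STM, the homeobox gene that keeps shoot meristems undifferentiated, had 138, 141, 153 and 112 normalized counts at 6 h and 185, 165, 174 and 187 at 72 h (log2 difference 0.37 ± 0.10 (SE), adjusted p = 0.00993). YAB3, a marker of leaf primordia, was also higher (log2 difference 0.59 ± 0.15 (SE), adjusted p = 0.0055), and 1 CLV1-like component tested through 6 h alone was lower (comp91713_c0, log2 difference -0.97 ± 0.35, and -1.34 without 72 h replicate 4), a call lost in 8 of 15 alternatives. WUS, PHV and FIL had no component and REV was at 0 to 1.63 normalized counts.

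Tissues other than the bud proper were followed by 4 marker lists. For xylem, 10 components for 9 of 18 secondary wall genes were tested, with a summed level of 618 to 695.8 normalized counts at 6 h and 676 to 834 at 72 h. Of the 10, 2 were higher, FRA8 (log2 difference 0.29 ± 0.10, lost in 8 of 16 alternatives) and LAC4 (0.98 ± 0.25, tested through 72 h alone), and none was lower. The master regulators VND7, MYB46 and MYB83 stayed at or under 4.78 normalized counts. For phloem, 7 components summed to 1770.0 to 2119 at 6 h and 1173 to 1628 at 72 h, and the list median was a log2 difference of 0.14. Summed over all components of a gene, tested or not, the companion cell sucrose carrier SUC2 was lower, at 1538 to 1822 against 834 to 1068, while SEOR1 had 227 to 336 against 283 to 546 and APL 17.9 to 32.7 against 28.3 to 41.5. Both tested components of SUC2 were lower, comp130060_c1 with 1358, 1333, 1219 and 1379.6 normalized counts at 6 h and 767, 656, 718 and 850.5 at 72 h (log2 difference -0.84 ± 0.10 (SE), adjusted p = 2.66e-06) and comp130300_c2 by a log2 difference of -1.02 ± 0.11. Of 4 tested components of the sieve element protein SEOR1, 1 was higher (comp134729_c0) and the others were not called. The 72 h value of comp134729_c0 rests on replicate 4 (169, 158, 169 and 331 in replicates 1 to 4), and its call is lost without that library or without 6 h replicate 3. For suberized root tissue, none of 5 components was called (1 lower without 6 h replicate 3), the one with the highest mean count being ASFT (comp107859_c1) at 48.9 to 97.5 against 56.7 to 80.5 normalized counts. For root tips 1 of 3 was called, SHR by its AGI (log2 difference 0.49 ± 0.14, lost without 72 h replicate 4), while WOX5 was at 0 in all 8 libraries. In pooled buds, fewer cells of a type and less RNA per cell cannot be told apart. The part of these tissues and of the non-plant share in the differences between 6 h and 72 h was not tested.

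**Figure D1:**
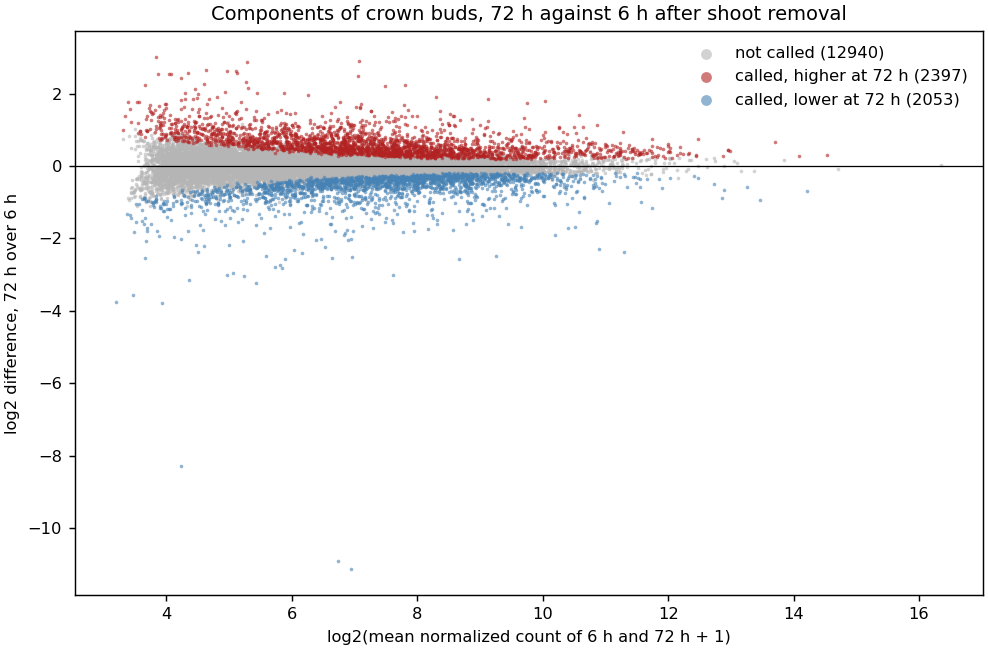
Each point is 1 of 17390 components, with the log2 of its mean normalized count over the 6 h and 72 h libraries (plus 1) on the x axis and its log2 difference between 72 h and 6 h on the y axis. Red marks the 2397 that were higher and blue the 2053 that were lower, which together make up 25.6% of all, and the 3 lowest blue points are components that were at 0 in every 72 h library.

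The comparison asks how growing buds differ from buds in their early response. Components were called at an adjusted p under 0.05, where here and below the p-value is that of edgeR's quasi-likelihood test in a fit of all 15 libraries, adjusted by Benjamini-Hochberg over all 17390 components. Calls numbered 4450 in total (25.6%), of which 2397 (13.8% of all components) were increases from 6 h to 72 h and 2053 (11.8%) were decreases. Among components above 10 in both groups, 4147 of 16032 were called (25.9%). The differences were moderate: the median size of a called difference was 0.527 on the log2 scale, 331 components were at least doubled and 256 at least halved, and 24 and 38 changed at least 4-fold. The 2 groups did not overlap in 4693 components (27.0%), 3709 of them called. Requiring 1.5-fold left 1920 calls (11.0%), or 10.1% among components above 10 in both groups. A list of genes is described below by its calls in each direction, to be read against the 13.8% and 11.8% of all components, and by its median log2 difference, to be read against 0.00 over all components. Called members are also placed against the 0 h level. They were chosen by the same 6 h and 72 h libraries, so such counts are raised by the choice and are descriptions. The share of all components printed beside such a count was not chosen in this way. In the lists for pectin enzymes, heat shock proteins, expansins, cytokinin, flavonoids, and cutin and wax, the counts among members above 10 in both groups are given too, and in each other list at most 1 call in a direction came from a member that passed through 1 group alone.

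**Figure D2:**
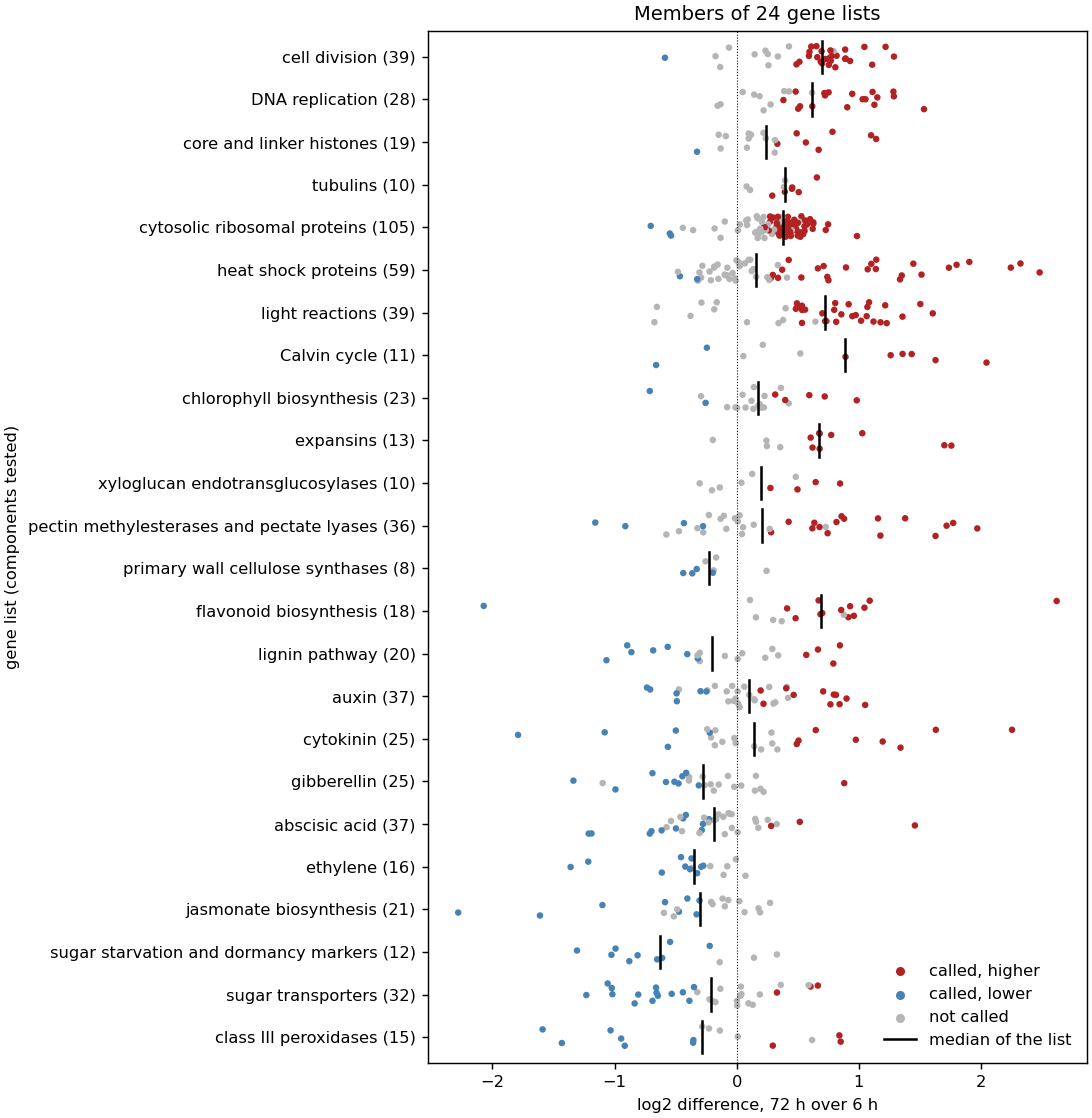
Log2 differences (72 h over 6 h, x axis) of the members of 24 gene lists (y axis, with the number of components tested), in red where called higher, blue where called lower and grey where not called, with a black bar at the median of each list. The medians of cell division, DNA replication, light reactions and flavonoid biosynthesis lie at 0.62 to 0.72 and those of sugar starvation markers at -0.63.

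By the rule for named genes, the 10 largest decreases were taken among components above 10 in both groups whose groups did not overlap. Of the 10, 9 were called above the 0 h level at 6 h (10.5% of all components were), the exception being nitrate reductase. The 10 were chosen for lying higher at 6 h, so this count is a description. At the head stood a 2-oxoglutarate dioxygenase (comp122979_c1, closest to AT3G11180, which in Arabidopsis hydroxylates and so inactivates jasmonate). It had 96.2, 107, 88.1 and 99.3 normalized counts at 6 h and 19.6, 10.8, 14.4 and 16.5 at 72 h, with the groups far apart (log2 difference -2.82 ± 0.27 (SE), adjusted p = 1.84e-07). Intact buds had 13, 8.29 and 28.1, a level called lower than that of 6 h, with no call against 72 h (adjusted p = 0.477). A lipoxygenase (comp137538_c0, closest to LOX2, which makes the hydroperoxide from which jasmonate is built) had 2236, 2732, 4921 and 2716 normalized counts at 6 h and 542, 509, 994 and 553 at 72 h (log2 difference -2.28 ± 0.27 (SE), adjusted p = 3.08e-06). The third 6 h library was the highest and the third 72 h library was set apart from its group, yet the groups did not overlap.

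Among the same 10 decreases, alcohol dehydrogenase (comp131308_c0), the last enzyme of ethanol fermentation, had 4848, 4402, 2922 and 4716 normalized counts at 6 h and 691, 749, 807 and 1009 at 72 h (log2 difference -2.39 ± 0.20 (SE), adjusted p = 3.5e-08), and its 72 h level was also under the 1576 to 3704 of intact buds. Non-symbiotic hemoglobin (comp89047_c0), which binds oxygen and removes nitric oxide, had 111, 108, 47.3 and 129.7 normalized counts at 6 h and 15.7, 16, 15.9 and 23.6 at 72 h (log2 difference -2.56 ± 0.27 (SE), adjusted p = 9.08e-07). One 6 h library, replicate 3, lay far under the other 3 but still above every 72 h library.

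Nitrate reductase (comp131123_c0), the entry step of nitrate assimilation, was the one of the 10 not raised at 6 h. It had 171, 233, 179 and 259 normalized counts at 6 h and 43.2, 37.7, 39.9 and 26 at 72 h and 212, 217 and 154 in intact buds (log2 difference -2.51 ± 0.20 (SE), adjusted p = 2.25e-08). No difference was called between 0 h and 6 h (adjusted p = 0.581) and the 72 h libraries were the low ones. The remaining decreases of this size were a universal stress protein relative (comp120004_c1, AT3G62550, log2 difference -2.57 ± 0.22), a late embryogenesis abundant protein (comp112460_c0, -2.54 ± 0.21), a protein resembling the tobacco stem protein tsjt1 (comp127192_c1, -2.49 ± 0.25), an H-type thioredoxin (comp104864_c0, -2.41 ± 0.24) and an aldo-keto reductase relative (comp111332_c0, AT2G37770, -2.30 ± 0.21). The thioredoxin stood at 0.81 to 5.24 normalized counts in intact buds, 79.9 to 151 at 6 h and 17.7 to 30.3 at 72 h, so all 72 h libraries still lay above all 0 h libraries. The late embryogenesis protein was the only call among 6 dehydrin and late embryogenesis components, whose median log2 difference was 0.02.

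Of 21 components of jasmonate biosynthesis, 8 were lower and none higher (median log2 difference -0.30), covering LOX2 at 2 components, LOX3, allene oxide synthase, the reductase OPR3 and the beta-oxidation enzymes OPCL1, ACX1 and KAT2. Allene oxide synthase (AOS, comp115476_c0), the committed step, had 685, 864, 1822 and 822 normalized counts at 6 h and 336, 320.2, 412 and 286 at 72 h (log2 difference -1.61 ± 0.25 (SE), adjusted p = 6.23e-05). As with the lipoxygenase, 6 h replicate 3 was the highest, and the summed level of the list was 8592 to 13114 normalized counts at 6 h and 5409 to 6098 at 72 h. Among 8 jasmonate signalling components JAZ12 was lower (log2 difference -0.44 ± 0.08) and JAZ3 higher (0.32 ± 0.10, lost in 2 of 16 alternatives), and 2 MYC2 components were not called.

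In the ethylene list 10 of 16 components were lower and none higher (median -0.35). The 10 hold the receptors ETR2 and ERS1, the kinase CTR1 that represses the pathway, the transcription factors EIN3 and EIL1, 2 components of the F-box protein EBF1 that removes them, the oxidases ACO1 and ACO4 and the target ERF1. Without 72 h replicate 2 the count of lower calls was 5. ERF1 (comp92392_c0, tested through 6 h alone) had 25.9, 26.3, 27.7 and 29.2 normalized counts at 6 h and 17.7, 10.8, 11.2 and 0 at 72 h, the last library being at 0. An ACC oxidase (comp118906_c0, ACO1), which makes ethylene from its precursor, had 358, 336, 253 and 311 normalized counts at 6 h and 70.7, 89, 78.1 and 371 at 72 h. The fourth 72 h library was above every 6 h library while the other 3 were far below, so the groups overlap; the log2 difference was -1.22 ± 0.31 (SE), adjusted p = 0.00606, and -1.95 without that library, and DESeq2 did not call it. By name, 5 components were ACC synthases or oxidases, of which 2 were lower, this one and comp102144_c0, an ACC oxidase by its hit whose AGI, AT5G24530, is that of the salicylate hydroxylase DMR6 (log2 difference -0.65 ± 0.23, lost in 7 of 16 alternatives).

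Of 20 ethylene response factors 6 were lower and 1 higher (median -0.30), with comp95419_c0 at 112, 101, 99.5 and 94.6 normalized counts at 6 h and 58.9, 48.5, 57.4 and 52 at 72 h (log2 difference -0.94 ± 0.14 (SE), adjusted p = 3.94e-05) and comp120995_c1 (log2 difference -0.89 ± 0.15). The higher one (comp107990_c0, log2 difference 0.32 ± 0.11) lost its call in 10 of 16 alternatives. Without 6 h replicate 1 the lower calls were 3 and without 72 h replicate 2 they were 2. Of 29 WRKY components 4 were lower and 1 higher (median -0.17), with comp106628_c0 at a log2 difference of -0.54 ± 0.13, comp101731_c0 at -0.56 ± 0.20 and the higher comp123277_c0, tested through 72 h alone, at 0.76 ± 0.24. The last 2 calls were lost in 7 of 16 and in 5 of 15 alternatives, and the lower calls numbered 2 without 6 h replicate 1 or without 72 h replicate 1, 2 or 3, and 9 with the 8 libraries fitted alone. Of 11 NAC components 1 was lower (comp126370_c0, log2 difference -0.36 ± 0.13, lost in 7 of 16 alternatives).

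Of 12 components of the sugar starvation and dormancy list, 9 were lower and none higher (median -0.63). Chosen for lying higher at 6 h than at 72 h, the 9 were each called above the 0 h level at 6 h (10.5% of all components were). They include the auxin-repressed DRM1 gene, a classical marker of dormant buds, asparagine synthetase ASN1, the amino acid catabolic genes BCAT2 and MCCA, the dark-induced gene DIN9, and 3 trehalose-6-phosphate synthase-like components. One of the latter (TPS9, comp124392_c0) had 178, 106, 124 and 120.3 normalized counts at 6 h and 51, 51.9, 47.8 and 61.4 at 72 h and 28.3, 31.5 and 31.4 in intact buds (log2 difference -1.31 ± 0.18 (SE), adjusted p = 1.98e-05). Buds of 6 h thus lay above both other groups, and the 72 h level remained above that of 0 h. TPS10 (comp121034_c0) had 265, 236, 171 and 182 normalized counts at 6 h and 100.1, 110.1, 110.0 and 99.2 at 72 h (log2 difference -1.03 ± 0.16 (SE), adjusted p = 6.72e-05). DRM1 (comp136283_c0), with among the highest counts of all components lower at 72 h, had 10655, 8608, 8630.0 and 9348 normalized counts at 6 h and 6992, 5814, 6297 and 4595 at 72 h (log2 difference -0.65 ± 0.15 (SE), adjusted p = 0.00318). The kinase AKIN10, which conveys the starvation signal, was lower as well but by little, the smallest difference of the 9 (log2 difference -0.22, comp110675_c0).

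Among sugar transporters 14 of 32 components were lower and 3 higher (median -0.21). A hexose transporter (comp121139_c0, closest to STP1, which imports glucose into cells) had 719, 675, 494 and 583 normalized counts at 6 h and 228, 252, 249 and 347 at 72 h (log2 difference -1.23 ± 0.13 (SE), adjusted p = 7.42e-07) and 279 to 363 in intact buds. Another (comp100236_c0, closest to STP13) had 809, 735, 644 and 624 normalized counts at 6 h and 314, 326, 357 and 364 at 72 h (log2 difference -1.06 ± 0.09 (SE), adjusted p = 6.94e-08). Of the higher members, comp134446_c0 differed by 0.60 ± 0.17 on the log2 scale and comp129623_c0 by 0.66 ± 0.24, the latter lost in 9 of 16 alternatives, and without 6 h replicate 2 or without 72 h replicate 2 only 1 higher call was left. Sucrose synthase (comp128484_c0), which splits imported sucrose, was lower too (log2 difference -0.49 ± 0.09).

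Of 16 starch breakdown components 4 were lower and none higher (median -0.18): 2 beta-amylases of the BAM1 type, the glucan water dikinase GWD1 and the phosphorylase PHS2. Without 6 h replicate 3 the higher calls were 2. BAM1 (comp130838_c0) had 144, 114, 197 and 171 normalized counts at 6 h and 76.6, 68.5, 63.8 and 92.1 at 72 h (log2 difference -1.06 ± 0.18 (SE), adjusted p = 0.000232) and its other component (comp116683_c1) differed by -0.82 ± 0.11. Of 12 synthesis components 3 were higher and 2 lower (median 0.10), and 1 was lower without 6 h replicate 2 or 3 or without 72 h replicate 2 or 4. Granule-bound starch synthase (GBSS1, comp112228_c0), which makes amylose, had 1329.5, 1430.3, 1902 and 1687 normalized counts at 6 h and 2386, 2303, 2135 and 2025 at 72 h (log2 difference 0.48 ± 0.10 (SE), adjusted p = 0.00121). Both levels were far under the 6060.3 to 7485 of intact buds, so the gene remained well under its 0 h level at 72 h. Starch synthase SS4 was higher (log2 difference 0.76 ± 0.21), SS3 lower (-0.34 ± 0.08), and the ADP-glucose pyrophosphorylase subunit APL2 lower (-0.43 ± 0.14, lost in 4 of 16 alternatives).

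**Figure D3:**
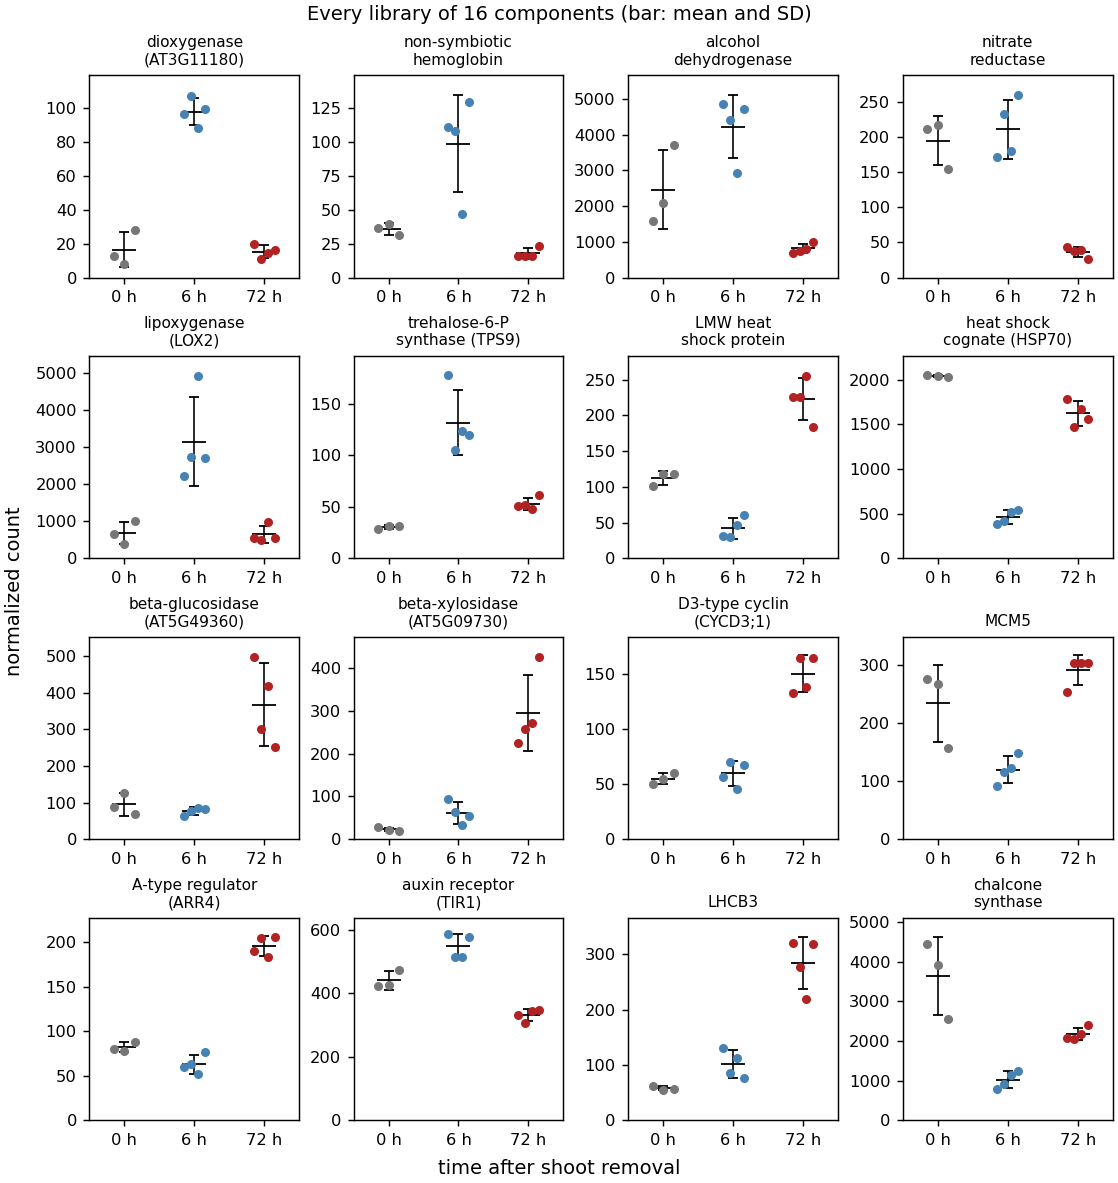
Normalized counts (y axis, from 0) of 16 components in every library of 0 h (grey), 6 h (blue) and 72 h (red), with the mean and SD of each group as black bars. The dioxygenase, hemoglobin, lipoxygenase and TPS9 peak at 6 h, the heat shock cognate and MCM5 dip at 6 h, and the D3-type cyclin, ARR4 and LHCB3 are high at 72 h alone.

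Chaperones held 5 of the 10 largest increases by name. Chosen for lying lower at 6 h than at 72 h, all 5 were called under the 0 h level at 6 h (9.15% of all components were). The heat shock cognate comp112561_c0 (closest to AT3G12580, a cytosolic HSP70, which keeps other proteins folded) had 385, 420.1, 517 and 547 normalized counts at 6 h and 1784, 1468, 1671 and 1559.6 at 72 h, with no overlap (log2 difference 1.80 ± 0.10 (SE), adjusted p = 2.49e-10). Intact buds had 2047, 2042 and 2028, above both groups. Its relative comp125689_c1 went the same way (323, 396, 403 and 453 normalized counts at 6 h and 1463, 1132, 1421 and 1256 at 72 h, log2 difference 1.74 ± 0.10 (SE), adjusted p = 4.16e-10) and so did an HSP90 (comp135518_c0, AT5G52640, log2 difference 1.90 ± 0.13). For these last 2 no difference between 0 h and 72 h was called (adjusted p = 0.177 and 0.459). An HSP90 tested through 72 h alone (comp100899_c0) had 6.17, 13, 14.7 and 14 normalized counts at 6 h and 71.8, 43.4, 79.7 and 59.1 at 72 h. RSEM shares reads among similar contigs, so the counts of close copies such as these HSP70 components are less certain than their errors show.

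Others rose beyond the 0 h level. A small heat shock protein (comp116236_c0, closest to the mitochondrial HSP23.6) had 101, 118 and 118 normalized counts in intact buds and 30.8, 29.96, 47.3 and 60.7 normalized counts at 6 h and 226, 226, 255 and 184 at 72 h (log2 difference 2.48 ± 0.18 (SE), adjusted p = 7.53e-09). The mitochondrial chaperonin HSP60 (comp126027_c0) had 222, 238, 238 and 269.9 normalized counts at 6 h and 693, 874, 851 and 1065 at 72 h (log2 difference 1.84 ± 0.11 (SE), adjusted p = 4.7e-10). The heat stress coactivator MBF1c (comp114232_c0, AT3G24500) had 126, 81, 81.6 and 131 normalized counts at 6 h and 385, 272, 368 and 319 at 72 h (log2 difference 1.68 ± 0.18 (SE), adjusted p = 8.55e-07). Over the list of heat shock proteins and their partners, 25 of 59 components were higher and 2 lower. Among the 52 above 10 in both groups 22 were higher and 2 lower. The list median was 0.16, and most of the members were not called. Of the 25, 17 were under the 0 h level at 6 h (9.15% of all components were) and 6 above it at 72 h (9.60%). These contrasts share the 0 h libraries, and each shares libraries with the comparison that chose the 25. The lower members were HSP70-interacting or heat shock binding proteins (comp129957_c0, log2 difference -0.32 ± 0.08, and comp104420_c0, -0.46 ± 0.15, the latter lost in 4 of 16 alternatives). An HSP90 among the 5 called increases with the highest counts (comp134924_c0, AT5G56010) had 9363, 9853, 10845 and 11069.7 normalized counts at 6 h and 16819, 15432, 16641 and 16302 at 72 h (log2 difference 0.66 ± 0.08 (SE), adjusted p = 4.72e-06).

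Ribosome genes rose by small amounts in large number. Of 105 cytosolic ribosomal protein components 70 were higher and 3 lower (median 0.38, summed level 129002 to 156523 at 6 h and 169787 to 201081 at 72 h). The largest increase among those above 10 in both groups was that of S8 (comp95711_c0), with 524, 495, 592 and 557 normalized counts at 6 h and 869.7, 918, 858 and 983 at 72 h (log2 difference 0.75 ± 0.07 (SE), adjusted p = 3.92e-07). A component of L5 tested through 72 h alone (comp86947_c0) differed by 0.98 ± 0.24. Among the 3 lower, comp110594_c0 (named L7a by its protein hit) had 262, 230.4, 232 and 208 normalized counts at 6 h and 153, 139, 153 and 125 at 72 h (log2 difference -0.70 ± 0.10 (SE), adjusted p = 4.56e-05) and comp113989_c0 (named L18a) -0.55 ± 0.18, lost in 4 of 16 alternatives. The AGI of comp110594_c0, AT3G02290, is that of a RING finger protein and not of a ribosomal protein. Without 6 h replicate 1 or without 72 h replicate 2, 1 lower call was left. Elongation factor EF1-alpha (comp136796_c0), which brings aminoacyl-tRNA to the ribosome, was higher by 0.30 ± 0.09 (lost in 3 of 16 alternatives), ribosomal protein S4 (comp124307_c0) by 0.42 ± 0.07 and a ubiquitin extension protein (comp111736_c0) by 0.44 ± 0.09, all on the log2 scale and among the 5 components with the highest counts of those called higher.

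Of 39 cell division components 28 were higher and 1 lower (median 0.70), and the summed level was 5049 to 5674 at 6 h and 7264 to 8290.1 at 72 h, with no overlap. The 28 comprise 5 D-type cyclin components that drive entry into the cycle (CYCD1;1, CYCD3;1 at 3 components and CYCD3;2) and CYCD6;1, the A-type cyclins CYCA1;1, CYCA2;4 and CYCA3;4, and 6 B-type cyclin components that act at mitosis. They also hold the mitotic kinases CDKB1;2 and CDKB2;2, the Aurora kinases AUR1 and AUR3, 2 CDC20 components, the transcription factors E2FB and MYB3R1, and the spindle and cell plate proteins TPX2, PLE (2 components), HINKEL and KNOLLE. A D3-type cyclin (comp99536_c0) had 56.8, 70.7, 45.7 and 67.8 normalized counts at 6 h and 133, 165, 139 and 165 at 72 h, with the groups far apart (log2 difference 1.29 ± 0.17 (SE), adjusted p = 1.07e-05). It had 50.2 to 60.3 in intact buds. A B1-type cyclin (comp78653_c0, tested through 72 h alone) differed by 1.22 ± 0.33. The lower member, comp135437_c0, is 1 of 2 components closest to CYCA1;1 and had 71.6, 67.6, 53.8 and 63.1 normalized counts at 6 h and 51, 45, 39.9 and 33.1 at 72 h (log2 difference -0.59 ± 0.15 (SE), adjusted p = 0.00573), whereas the other CYCA1;1 component was higher. Of the 28, 25 were above the 0 h level at 72 h (9.60% of all components were) and 2 below it at 6 h (9.15%). Because the 28 were chosen for lying higher at 72 h than at 6 h, these counts are descriptions.

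Of 28 DNA replication components 18 were higher and none lower (median 0.62), among them components of 6 MCM subunits of the replicative helicase (MCM2 to MCM7), its loaders CDC6, CDT1A and ORC1, CDC45, the sliding clamp PCNA2, the flap endonuclease FEN1 and the ribonucleotide reductase subunits RNR1 and TSO2. MCM5 (comp120449_c0) had 92.6, 117, 122 and 149.5 normalized counts at 6 h and 253, 305, 305 and 305 at 72 h and 277, 268 and 158 in intact buds (log2 difference 1.29 ± 0.18 (SE), adjusted p = 2.03e-05). The loading factor CDT1A (comp127134_c0) had 23.4, 29.4, 26.1 and 35 normalized counts at 6 h and 82.5, 90.2, 75 and 82.7 at 72 h (log2 difference 1.53 ± 0.23 (SE), adjusted p = 5.97e-05). Of the 18, 12 were below the 0 h level at 6 h (9.15% of all components were) and 7 above it at 72 h (9.60%). For the cell division genes these counts were 2 and 25 of 28, and the difference between the lists was not tested. In both lists the members counted were chosen by the same 6 h and 72 h libraries.

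**Figure D4:**
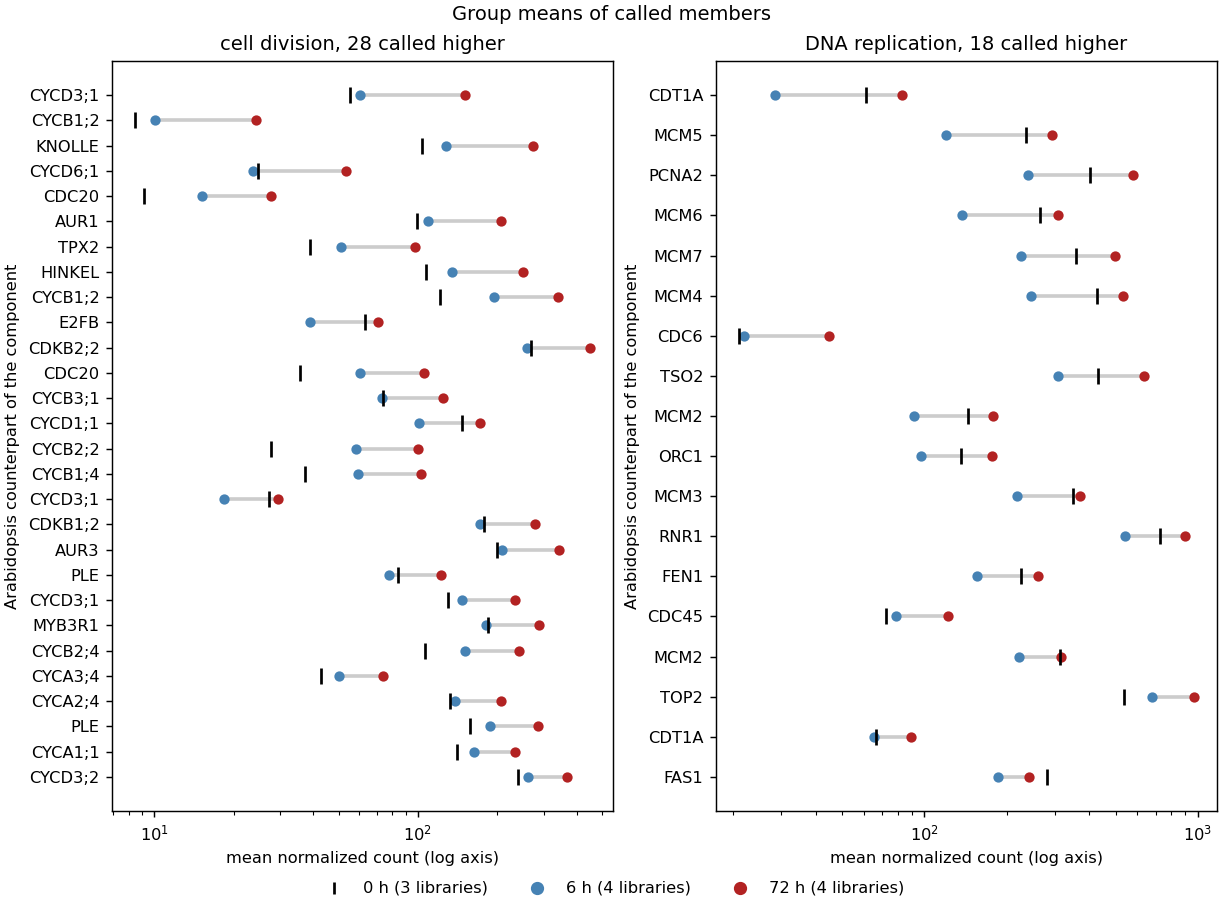
Mean normalized count (x axis, log scale) of the called higher members of the cell division list (28, left) and the DNA replication list (18, right) at 0 h (black tick), 6 h (blue) and 72 h (red), each labelled by its Arabidopsis counterpart and ordered by its log2 difference. In the right panel most ticks lie between the 2 points, whereas in the left panel most lie near or below the blue point.

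Histones, which are made during DNA replication, were higher at 7 of 19 components and lower at 1 (median 0.24). Histone H4 (comp91082_c0) had 67.9, 56.9, 61.7 and 68.9 normalized counts at 6 h and 82.5, 146, 126 and 187 at 72 h (log2 difference 1.10 ± 0.22 (SE), adjusted p = 0.00078). Histone H2B (comp90197_c0) had 24.7, 27.3, 21.2 and 22.2 normalized counts at 6 h and 41.2, 58.2, 47.8 and 68.5 at 72 h (log2 difference 1.14 ± 0.28 (SE), adjusted p = 0.00426). For both the groups did not overlap, while comp114899_c0, a histone H1.1 by its hit whose AGI, AT5G67580, is that of a telomere repeat binding factor, was lower (log2 difference -0.32 ± 0.10), a call lost in 6 of 16 alternatives. Poly A selection recovers replication-dependent plant histones, whose messages carry a tail. Tubulins, the subunits of microtubules, were higher at 6 of 10 components and lower at none (median 0.40), led by a beta-tubulin (comp128449_c2) with 1191, 1138, 1225 and 1420.5 normalized counts at 6 h and 1838, 1761, 1999.8 and 2256 at 72 h (log2 difference 0.66 ± 0.11 (SE), adjusted p = 0.000144) and comp113030_c0 (0.51 ± 0.08).

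Wall genes split by kind. Expansins, which loosen walls without cutting them, were higher at 9 of 13 components and lower at none (median 0.68). Among the 11 above 10 in both groups 7 were higher (median 0.62). The 2 of largest difference passed through 72 h alone, an alpha-expansin 11 (comp108464_c0, 9.87, 7.22, 29.4 and 24.5 normalized counts at 6 h and 37.3, 53.7, 44.7 and 75.6 at 72 h) and a beta-expansin 3 (comp101519_c0, 9.87, 12.4, 4.89 and 17.5 normalized counts at 6 h and 35.3, 45.7, 28.7 and 37.8 at 72 h). Their log2 differences were 1.76 ± 0.40 and 1.70 ± 0.28. Xyloglucan endotransglucosylases, which cut and rejoin the tethers between cellulose fibrils, were higher at 4 of 10 and lower at none (median 0.20), with comp120426_c1 at 147, 153, 148 and 146 normalized counts at 6 h and 218, 287, 247 and 317 at 72 h (log2 difference 0.85 ± 0.14 (SE), adjusted p = 0.000123) and comp122642_c1 at 0.65 ± 0.10. Leaving out 6 h replicate 2, 6 h replicate 4 or 72 h replicate 4 gave 2 higher calls. Cellulose synthases of the primary wall went the other way, 4 of 8 lower and none higher (median -0.23), with CESA3 (comp103384_c0) at 449, 473, 501 and 477 normalized counts at 6 h and 346, 319, 354 and 399 at 72 h (log2 difference -0.44 ± 0.12 (SE), adjusted p = 0.00965) and CESA6 (comp117139_c0) at -0.36 ± 0.07. Without 72 h replicate 2 the lower calls were 2, and that of CESA3 was lost.

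Enzymes acting on pectin and hemicellulose held 3 of the 10 largest increases. A component with the hit periplasmic beta-glucosidase (comp131254_c0) is closest to AT5G49360, a beta-xylosidase that trims side chains of wall polysaccharides, and had 64.2, 75.8, 86.5 and 82.9 normalized counts at 6 h and 499, 300.3, 419 and 253 at 72 h (log2 difference 2.25 ± 0.20 (SE), adjusted p = 7.98e-08). A second beta-xylosidase (comp135652_c0, AT5G09730) had 93.8, 62.9, 34.3 and 54.9 normalized counts at 6 h and 224, 258, 271 and 425 at 72 h and 27.5, 21.5 and 19.6 in intact buds (log2 difference 2.20 ± 0.25 (SE), adjusted p = 2.03e-06), so it was above the 0 h level at 6 h already. A polygalacturonase (comp123743_c1), which cuts pectin, had 19.7, 36.6, 34.3 and 29.2 normalized counts at 6 h and 124, 123, 108 and 132 at 72 h (log2 difference 1.97 ± 0.20 (SE), adjusted p = 5.39e-07), and intact buds had 167, 123 and 128, with no call against 72 h. Over all pectin methylesterases, pectate lyases and polygalacturonases 16 of 36 were higher and 4 lower (median 0.20). Among the 32 above 10 in both groups 13 were higher and 4 lower (median 0.095). The lower ones include a pectate lyase (comp127068_c0, log2 difference -1.16 ± 0.27) and a pectinesterase (comp120278_c1, -0.91 ± 0.12), and a pectate lyase tested through 72 h alone (comp95772_c0) was higher by 1.77 ± 0.41. A single fasciclin-like arabinogalactan component was tested and not called (comp120604_c0, log2 difference 0.18 ± 0.12, adjusted p = 0.272).

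Genes of the photosynthetic light reactions were higher at 28 of 39 components and lower at none (median 0.72). All 28 were above the 0 h level at 72 h (9.60% of all components were), and 9 were above it at 6 h (10.5%). Being higher at 72 h than at 6 h was what chose the 28, so these counts are descriptions. They cover antenna proteins of both photosystems (LHCA1 to LHCA4, LHCB2 to LHCB6), subunits of photosystem I and of the oxygen-evolving complex, plastocyanin and ferredoxin. LHCA3 (comp123990_c0) had 91.3, 53.6, 91.4 and 36.2 normalized counts at 6 h and 226, 201, 128 and 248 at 72 h, with the 6 h libraries spread over more than 2-fold and still under the lowest 72 h library (log2 difference 1.60 ± 0.32 (SE), adjusted p = 0.000766). LHCB3 (comp106911_c0) had 131, 86.1, 113 and 75.6 normalized counts at 6 h and 321, 276, 220.1 and 319 at 72 h (log2 difference 1.503 ± 0.33 (SE), adjusted p = 0.00195). The count of calls depends on 1 library, as without 6 h replicate 2 it was 17, and the list median was 0.64 to 0.82 with each library left out in turn. The Calvin cycle list had 6 of 11 higher and 2 lower (median 0.89), and 3 higher without 6 h replicate 2. Plastid aldolase (FBA) was higher at 2 components, comp107375_c0 with 75.3, 34, 65.3 and 31.5 normalized counts at 6 h and 219.9, 125, 123 and 146 at 72 h (log2 difference 1.63 ± 0.37 (SE), adjusted p = 0.00262) and comp117289_c3 through 72 h alone (2.04 ± 0.40). The small Rubisco subunit split, 1 component higher and 1 lower (comp102721_c0, 979, 911, 931 and 884 normalized counts at 6 h and 546, 574, 496 and 746 at 72 h, log2 difference -0.66 ± 0.10 (SE), adjusted p = 6.81e-05), and the isomerase RPI was lower (log2 difference -0.24 ± 0.08, lost in 6 of 16 alternatives).

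The chlorophyll synthesis list had 5 of 23 higher and 2 lower (median 0.18). The cyclase subunit CRD1 (comp114730_c1) had 221, 172, 168 and 157 normalized counts at 6 h and 383, 360.1, 305 and 371 at 72 h (log2 difference 0.98 ± 0.22 (SE), adjusted p = 0.00185), and the protochlorophyllide reductase PORC differed by 0.72 ± 0.20. The lower ones were HEME1 (-0.71 ± 0.20) and HEMF (-0.25 ± 0.09, lost in 7 of 16 alternatives). Among 16 light signalling components 2 were higher and 6 lower (median -0.13). HY5 (comp119759_c1), which promotes light responses, had 35.8, 33, 17.9 and 32.7 normalized counts at 6 h and 17.7, 16, 22.3 and 11.8 at 72 h, overlapping (log2 difference -0.85 ± 0.28 (SE), adjusted p = 0.0268, lost in 5 of 16 alternatives). Also lower were PIF3 (-0.55 ± 0.15), PIF1, COP1 and 2 CRY1 components. Without 72 h replicate 2 the lower calls were 3. The higher were CRY2 (0.25 ± 0.06) and a PHYE-like component (0.38 ± 0.13, lost in 11 of 16 alternatives). Clock genes, all sampled around noon, had 3 of 16 higher and 3 lower (median -0.12). LHY (comp133357_c0) had 650.3, 591, 407 and 615 normalized counts at 6 h and 1301, 943, 742 and 1208 at 72 h (log2 difference 0.87 ± 0.16 (SE), adjusted p = 0.000473). LNK2 (0.93 ± 0.13) and LNK1 were higher too, and PRR5 (-1.09 ± 0.27), TOC1 (-0.43 ± 0.12) and ELF3 lower. LHY, which is expressed from dawn, had 1197 to 1902 normalized counts in intact buds, above all 6 h libraries.

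**Figure D5:**
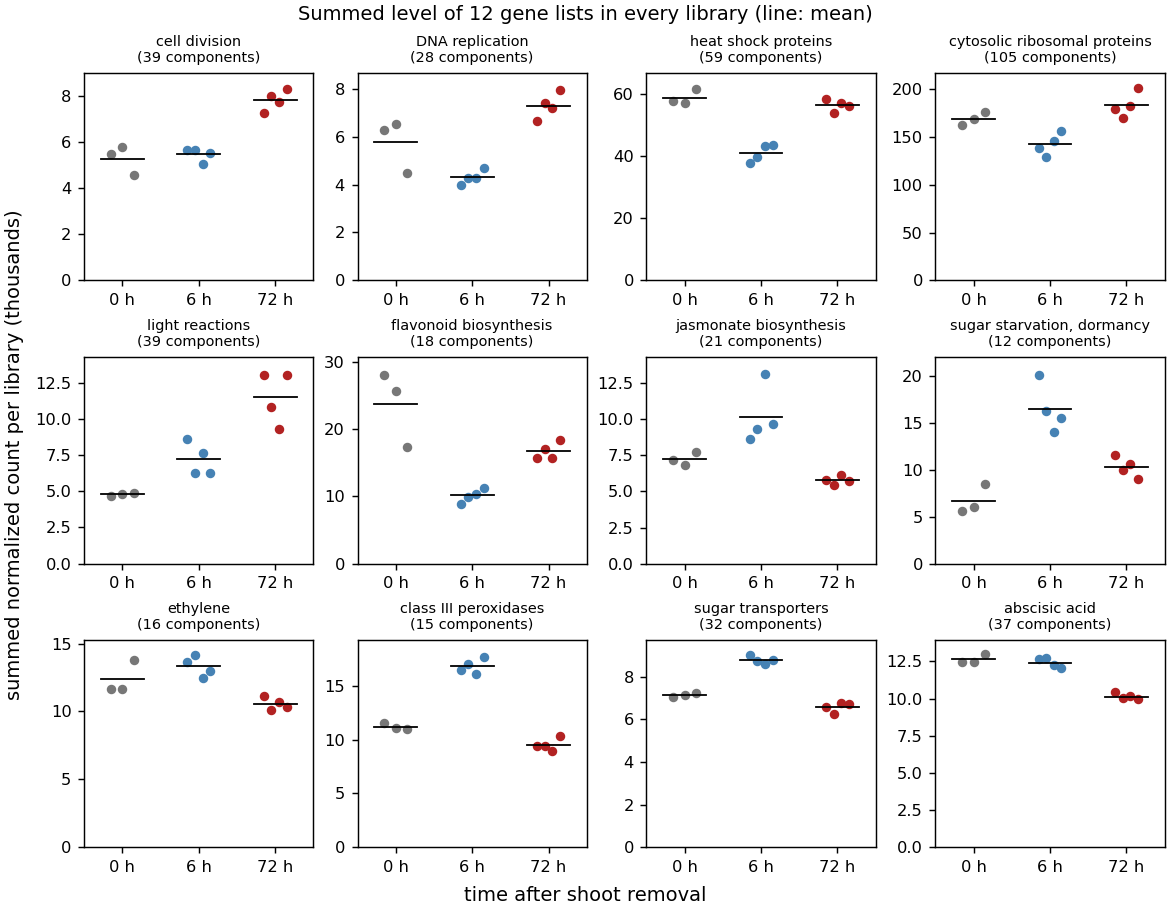
Summed normalized count (y axis, in kilocounts from 0) of the tested members of 12 gene lists in every library of 0 h (grey), 6 h (blue) and 72 h (red), with a line at each mean. All 12 lists have 6 h and 72 h libraries that do not overlap. The 12 are a choice among the lists described, and in others, such as the Calvin cycle and lignin lists, the sums of the 2 groups overlap. For cell division 0 h lies at the 6 h level, for heat shock proteins 0 h lies at the 72 h level, and for abscisic acid 0 h lies with 6 h.

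Flavonoid biosynthesis was higher at 12 of 18 components and lower at 1 (median 0.69), with chalcone synthase (comp114422_c0), the entry enzyme, at 778, 919, 1139.8 and 1249.7 normalized counts at 6 h and 2082, 2042, 2172 and 2391 at 72 h (log2 difference 1.09 ± 0.18 (SE), adjusted p = 0.000133). Intact buds had 4446, 3924 and 2541, so both groups lay under the 0 h level. The glycosyltransferase UGT78D2 (comp117282_c0, tested through 72 h alone) had 3.7, 11.3, 8.16 and 10.5 normalized counts at 6 h and 43.2, 47.9, 59 and 85 at 72 h. The lower member, a component nearest to DFR by AGI but named a cinnamoyl-CoA reductase by its protein hit (comp123571_c0, tested through 6 h alone), had 23.4, 17.5, 13.1 and 23.4 normalized counts at 6 h and 3.93, 4.57, 6.38 and 2.36 at 72 h. Among the 15 above 10 in both groups 11 were higher and none lower (median 0.69). Of the 12, 10 were below the 0 h level at 6 h (9.15% of all components were) and 5 still below it at 72 h (7.53%). Since the 12 were chosen for lying lower at 6 h than at 72 h, these counts are descriptions. The lignin list was mixed, with 4 of 20 higher and 7 lower (median -0.20). Phenylalanine ammonia-lyase PAL1 (comp126474_c0, log2 difference 0.85 ± 0.17) and an HCT (0.79 ± 0.11) were higher. The hydroxylase C3'H (comp131807_c0) had 1230.1, 1182, 985 and 1244 normalized counts at 6 h and 565, 501, 531 and 645 at 72 h (log2 difference -1.07 ± 0.09 (SE), adjusted p = 3.06e-08). Without 72 h replicate 2 the lower calls were 4. In the cutin and wax list 1 of 23 was higher (KCR1, 0.29 ± 0.10, lost in 5 of 16 alternatives) and 4 were lower (median -0.12), among them the cuticle regulator SHN1 (-1.20 ± 0.29) and the transporter ABCG32 (-0.91 ± 0.31, lost in 8 of 15 alternatives), both tested through 6 h alone. Among the 21 above 10 in both groups 1 was higher and 2 lower (median -0.053). Without 6 h replicate 2 the lower calls were 2.

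Of 25 cytokinin components 8 were higher and 5 lower (median 0.14). Among the 22 above 10 in both groups 6 were higher and 4 lower (median 0.068). The higher ones were the A-type response regulators ARR4, ARR5, ARR9 (2 components) and ARR17, which are induced by cytokinin, the receptor AHK4 and the oxidases CKX1 and CKX5, which degrade the hormone. ARR4 (comp103349_c0) had 59.2, 62.9, 52.1 and 77.1 normalized counts at 6 h and 190.4, 204, 183 and 206 at 72 h, with no overlap and a level also above the 77.9 to 88.4 of intact buds (log2 difference 1.63 ± 0.14 (SE), adjusted p = 7.43e-08). ARR9 (comp103904_c0, tested through 72 h alone) had 8.64, 6.19, 11.4 and 7.01 normalized counts at 6 h and 27.5, 34.2, 45 and 45.1 at 72 h. The lower were the isopentenyltransferases IPT5 and IPT3, the activating enzyme LOG7 (comp99231_c0, tested through 6 h alone, -1.79 ± 0.49, lost without 72 h replicate 2), the receptor AHK3 and the B-type regulator ARR2. IPT5 (comp136680_c0) had 116, 161, 105 and 94.6 normalized counts at 6 h and 70.4, 61.1, 65.4 and 26 at 72 h (log2 difference -1.08 ± 0.25 (SE), adjusted p = 0.00266). Without 6 h replicate 1, 6 h replicate 2, 72 h replicate 3 or 72 h replicate 4, the lower calls were 3. Of the 8 higher members 7 were above the 0 h level at 72 h (9.60% of all components were), a count raised by the choice of members higher at 72 h.

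The auxin list had 11 of 37 higher and 6 lower (median 0.10). Among the higher were the importer AUX1, the synthesis gene YUC4 and the auxin response repressors IAA9 (2 components), IAA16, IAA19, IAA27 and IAA29. The lower were 3 components of the receptor TIR1, its relative AFB2, IAA4 and the conjugating enzyme GH3.6. TIR1 (comp119910_c0) had 587, 516, 514 and 576 normalized counts at 6 h and 332, 306, 343 and 347 at 72 h (log2 difference -0.73 ± 0.09 (SE), adjusted p = 4.34e-06) and comp103033_c1 differed by -0.71 ± 0.10. Without 72 h replicate 2 the higher calls were 6.

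Gibberellin genes were lower at 9 of 25 components and higher at 1 (median -0.28). The lower comprise the early synthesis enzymes KS and KO, the receptors GID1A and GID1B (2 components), the F-box protein SLY1, 2 SCL3 components and the inactivating enzyme GA2OX2, so genes of synthesis, response and inactivation were all among them. GA2OX2 (comp115178_c0) had 90.1, 112, 65.3 and 81.8 normalized counts at 6 h and 27.5, 39.95, 39.9 and 28.3 at 72 h and 33.4 to 43.1 in intact buds (log2 difference -1.34 ± 0.18 (SE), adjusted p = 1.07e-05). SCL3 (comp106128_c0), a positive regulator of gibberellin response, had 202, 173, 184 and 155 normalized counts at 6 h and 98.2, 79.3, 87.7 and 104 at 72 h (log2 difference -0.99 ± 0.13 (SE), adjusted p = 8.37e-06). The 1 higher was the gibberellin-induced GASA4 (comp107575_c1) with 789.5, 800.4, 1126 and 1039.7 normalized counts at 6 h and 1668, 1485, 1821 and 1928 at 72 h (log2 difference 0.88 ± 0.15 (SE), adjusted p = 0.000176).

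Abscisic acid genes were lower at 11 of 37 and higher at 3 (median -0.19). The lower hold 4 receptor components (PYL4 at 2, PYL8 and PYL9), the kinase OST1, the phosphatase HAB1 that the receptors inhibit, the synthesis enzymes ABA1 and ABA2, 2 RD22 components and the catabolic enzyme CYP707A1 (comp120931_c0). The last had 428, 496, 341 and 392 normalized counts at 6 h and 151, 180.0, 212 and 194 at 72 h (log2 difference -1.19 ± 0.20 (SE), adjusted p = 0.000149). A second enzyme of the same step, CYP707A4 (comp111436_c2), went the other way with 14.8, 13.9, 24.5 and 15.2 normalized counts at 6 h and 33.4, 51.9, 41.5 and 44.9 at 72 h (log2 difference 1.46 ± 0.24 (SE), adjusted p = 0.00012). A PYL4 component tested through 6 h alone (comp111371_c0) had 29.6, 34.6, 21.2 and 45.6 normalized counts at 6 h and 5.89, 16, 3.19 and 35.4 at 72 h, overlapping, and lost its call in 5 of 15 alternatives. ABF3 was higher by 0.52 ± 0.16, with 72 h replicate 4 at the level of 6 h and the call lost in 6 of 16 alternatives. Without 72 h replicate 3 the lower calls were 6 and without 72 h replicate 4 they were 7, and 1 higher call was left without 6 h replicate 2, 72 h replicate 1 or 72 h replicate 3. Brassinosteroid genes had 1 of 12 higher and 2 lower (median -0.11): the sterol enzyme DWF1 (0.39 ± 0.07) was higher, and BAK1 (-0.47 ± 0.08) and DWF4 (-0.57 ± 0.21, lost in 10 of 16 alternatives) lower.

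Secreted peroxidases, which can cross-link or loosen walls, were taken by the name of the protein hit. Components of this list were lower at 7 of 15 and higher at 3 (median -0.28). One of them (comp120457_c0, AT1G71695) held among the highest counts of all components lower at 72 h, with 14472, 14753, 14292 and 15745 normalized counts at 6 h and 7677, 7471, 7275 and 8354 at 72 h (log2 difference -0.95 ± 0.08 (SE), adjusted p = 2.25e-08). It held most of the summed counts of the list, 16123 to 17736 at 6 h and 8993 to 10362 at 72 h. A cationic peroxidase (comp133754_c2) had 157, 186, 159.9 and 167 normalized counts at 6 h and 47.1, 65.1, 52.6 and 87.4 at 72 h (log2 difference -1.43 ± 0.23 (SE), adjusted p = 9.91e-05), and comp29297_c0, tested through 6 h alone, differed by -1.59 ± 0.38. Of the higher, comp116017_c0 differed by 0.85 ± 0.23 and comp119890_c0 by 0.84 ± 0.29, the latter tested through 72 h alone and lost in 7 of 15 alternatives. The former is a peroxidase by its hit, but its AGI, AT4G09010, is that of a thylakoid lumen protein and not of a secreted peroxidase. Catalase (comp126585_c0), which breaks down hydrogen peroxide, had 22974, 24457, 22569 and 23754 normalized counts at 6 h and 15281, 14047, 14084 and 14275 at 72 h and 11908, 11659 and 11552 in intact buds (log2 difference -0.70 ± 0.08 (SE), adjusted p = 1.82e-06). A type 2 metallothionein (comp100494_c0), a metal-binding protein, had 12396, 9942, 12704 and 12128 normalized counts at 6 h and 8525, 7703, 8218 and 6868 at 72 h (log2 difference -0.59 ± 0.11 (SE), adjusted p = 0.000402), both under its 16526 to 22951 in intact buds. Of 3 metallothionein components 1 was lower, this one, and 1 higher (comp132686_c1, 0.33 ± 0.12, lost in 7 of 16 alternatives).

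Aquaporins, the water channels, were lower at 5 of 15 components and higher at 3 (median -0.04). A plasma membrane member (comp125497_c1, PIP1.3) had 5163, 4129, 4761 and 4469.7 normalized counts at 6 h and 3337, 2767, 3009 and 2943 at 72 h (log2 difference -0.62 ± 0.09 (SE), adjusted p = 3.19e-05). A tonoplast member tested through 6 h alone (comp106678_c0) had 16, 19.6, 17.9 and 21 normalized counts at 6 h and 3.93, 1.71, 0 and 0 at 72 h. Of the higher, comp129573_c0 differed by 0.73 ± 0.16 and the tonoplast TIP2 comp116695_c0 by 0.37 ± 0.11; without 6 h replicate 2 or without 72 h replicate 4, 1 higher call was left. Calmodulins and relatives had 2 of 13 higher and 1 lower (median -0.16): comp130450_c0 (0.75 ± 0.16) and comp101694_c0 (0.69 ± 0.25, lost in 11 of 16 alternatives) were higher and comp136802_c0 (-0.25 ± 0.08, lost in 8 of 16 alternatives) lower. Asparaginase (comp123512_c1), which frees ammonium from asparagine, had 12.3, 15, 16.3 and 25.7 normalized counts at 6 h and 66.7, 82.8, 54.3 and 66.1 at 72 h (log2 difference 2.02 ± 0.26 (SE), adjusted p = 7.79e-06). An acetate-CoA ligase relative (comp136109_c0) differed by 0.29 ± 0.10, lost in 6 of 16 alternatives.

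Across all called components the 0 h level gives a description of where the 2 groups lie. Of 2397 components higher at 72 h, 642 differed from 0 h at 6 h alone, 728 at 72 h alone, 183 at both and 844 at neither. Of 2053 components lower at 72 h, the numbers were 752, 443, 230 and 628. Over all 17390 components 19.7% were called between 6 h and 0 h and 17.1% between 72 h and 0 h. These contrasts share their 0 h libraries, and each shares libraries with the comparison that chose the components, so the numbers are descriptive.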

How the data were processed

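Poly A RNA of crown buds was made into strand-specific libraries and sequenced as paired ends on a single lane. Before deposit, the authors used Sickle for trimming, Trinity for de novo assembly and BLASTX for annotation of contigs, and estimated expression with RSEM over bowtie alignments to 1 strand. The deposited values are RSEM expected counts per component, not normalized, and were rounded to whole numbers for the count tests. RSEM divides reads among similar contigs, so close copies are less certain than their errors show. Columns with the authors' own probabilities of differential expression were not used.

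Components above 10 normalized counts (median-of-ratios size factors) in every library of 6 h or of 72 h entered a quasi-likelihood fit (edgeR 4.0.16, R 4.3.3) over all 15 libraries and 4 time points, with the 72 h against 6 h contrast, Benjamini-Hochberg adjustment and a threshold of 0.05. The common biological coefficient of variation was 9.95%. The log2 differences printed are those edgeR gives after slight shrinkage. Standard errors are the size of the log2 difference before shrinkage over the root of F. Library measures were compared by exact permutation (scipy 1.17.1). The test was tried on data simulated with 1 common spread for all components. It called 57.6% of 1.5-fold, 89.6% of 2-fold and 98.5% of 2.83-fold changes, and 2.96% of its calls were false. Small changes can thus go uncalled. A component took the AGI and hit of its contig with the highest count.

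The members and gene lists were chosen with earlier results of these data known. Components named have a plant hit and an AGI and are the 10 largest increases and 10 largest decreases among called components above 10 in both groups without overlap, the 5 called with the highest mean count in each direction, and in each list the 2 called members of largest difference in each direction or, where none was called, the member of highest mean. Other members are named by their call alone. Some members the rule takes are not reported here and stay in the counts.

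The alternatives were TMM scaling, a filter above 0, a filter on both groups, the 8 libraries alone, DESeq2 1.42.0, limma 3.58.1 on log2(normalized count + 1), a replicate block, leaving out each library, a 1.5-fold minimum, a threshold of 0.01 and list membership by any contig. Testing components that passed at any time point was added after seeing the data. The paper calls the replicates biological, each taken from many plants. Nothing in the labels says that replicates came from separate experiments, so p-values measure the spread between these pools, part of which may be technical.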

Additional observations from a re-analysis of the deposited data

Results flagged for a closer look

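In each group of 4 libraries of the 150 components taken by the rule for named genes, the highest or lowest library was set against the rest of its group by Dixon's ratio of gap to range. One library stood apart in 19 of 300 groups (6.33%), where chance gives about 1 in 20, and 10 of the 19 were in replicate 4 of 72 h, the library with the fewest counts.

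In 72 h replicate 4 the value was high for the ACC oxidase comp118906_c0 (371 normalized counts, others 70.7 to 89), for SEOR1 comp134729_c0 (331, others 158 to 169), for tsjt1 comp127192_c1 (352, others 128 to 166), for CLV1 comp91713_c0 (23.6, others 6.91 to 9.57) and for the hemoglobin comp89047_c0 (23.6, others 15.7 to 16). It was also high for DWF1 comp115858_c0 (1316, others 1118 to 1143), for PAL1 comp126474_c0 (1498, others 1250 to 1278), for the fasciclin-like protein comp120604_c0 (442, others 302 to 310) and for the acetate-CoA ligase relative comp136109_c0 (20708, others 18600 to 18831). It was low for ABF3 comp131394_c0 (154, others 285 to 289).

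In the other 72 h libraries, replicate 3 was high for the lipoxygenase comp137538_c0 (994, others 509 to 553), and replicate 1 was low for MCM5 comp120449_c0 (253, others at 305) and for a calmodulin-like protein, comp101694_c0 (39.3, others 54.3 to 55.9).

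At 6 h, replicate 3 was high for allene oxide synthase comp115476_c0 (1822, others 685 to 864), CYP707A4 comp111436_c2 (24.5, others 13.9 to 15.2) and the calmodulin comp130450_c0 (45.9, others 32.1 to 33.9). Replicate 4 was high for the HSP70-interacting protein comp104420_c0 (82.9, others 68.8 to 71.2) and low for the NAC component comp126370_c0 (214, others 250 to 255), and replicate 2 was low for JAZ12 comp121170_c0 (878, others 1044 to 1062).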

How the results depend on the processing

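No component called in both the reported fit and an alternative changed its direction. Against 4450 calls (2397 higher, 2053 lower), TMM scaling gave 4475, a filter above 0 gave 4261, a filter on both groups 4178, the 8 libraries alone 5157 (2579 higher and 2578 lower), DESeq2 3832, limma 4655 and the components of any time point, an alternative added after seeing the data, 4394. A 1.5-fold minimum left 1920 calls (1105 higher, 815 lower) and a threshold of 0.01 left 2647 (1463 higher, 1184 lower), fewer by construction. With 1 library left out the calls were 3326 (without 72 h replicate 2) to 4207 (without 72 h replicate 1), with 1877 to 2324 higher and 1438 to 1907 lower. Of 148 called components taken by the rule for named genes, 112 kept the call in every alternative that gave a value and 36 lost it in at least 1, and the 2 not called gained none; the cause of each loss was not tested. Membership by any contig moved the calls of suberin markers from 0 to 1, WRKY from 5 to 8 and NAC from 1 to 3. Groups share replicate numbers, but deviations of same-numbered libraries correlated at 0.0203, 0.101, 0.0341 and 0.100 and not every library correlated best with its own number (6 h replicate 1 did so with 72 h replicate 3, at 0.0467), so the numbers were not taken as pairing; a replicate block gave 4915 calls (2614 higher, 2301 lower). Depth limits components near 10 normalized counts, where a library holds few reads.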

Other observations

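Singled out after their values were seen, 3 components were present in every 6 h library and at 0 in every library of 24 h and 72 h. The first, comp26680_c0, has no hit and had 225.8, 149.6, 238.2 and 366.5 normalized counts at 6 h. The second, comp141111_c0, also without a hit, had 160.4, 119.7, 228.4 and 331.8, and the third, comp57808_c0, whose best hit is an unnamed metazoan protein, had 33.3, 20.6, 44.1 and 44.4. Against a floor of 3 counts over the 4 libraries of 72 h (0.906 normalized counts), they were at least 270.5-fold, 231.9-fold and 39.3-fold higher at 6 h. In intact buds the first 2 reached 0.65 in 1 library and the last was at 0. Their fitted differences are no bounds and were not used.

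Of 299 components marked neither as plant nor as without a hit, 35 were called (11.7%), 18 higher and 17 lower, against 25.6% of all components tested. This class also takes in components for whose hit no group of organisms was given, so not all of it is known to be non-plant.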
